A study of Mus musculus with 52 samples.

Results

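The 9 mouse genes described here are ubiquitin ligase genes tied to muscle wasting (Fbxo32, Trim63, Fbxo30, Fbxo31, Fbxo21, Nedd4 and Traf6) and the FoxO transcription factors Foxo1 and Foxo3. They were taken by name, and all 9 were found among the 55401 mouse gene rows of the count table. Poly(A) RNA had been sequenced from muscle, spinal cord and cortex of mice that carry a transgene for human PFN1 with the C71G mutation, a model of amyotrophic lateral sclerosis, and of wild-type FVB/NJ mice. The arms were transgenic mice treated with an AAV (adeno-associated virus) carrying an artificial microRNA to Atxn2 (TG_amiR), transgenic mice given vehicle (TG_vehicle) and wild-type mice given vehicle (WT_vehicle). Each arm held 6 libraries in each tissue, except 5 in vehicle-treated transgenic muscle and 5 in wild-type cortex, 52 in all. Mice were 36 weeks old apart from 11 libraries of transgenic mice of 38 or 39 weeks, and both sexes were present in every arm. No arm received a control vector, the labels name no promoter for the transgene or the vector, and they do not tie the 3 tissues to animals. Nor do they say that each library of a tissue came from its own animal, so p-values measure the spread between these libraries.

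Muscle loses mass when protein breakdown outruns synthesis, and much of that breakdown runs through the ubiquitin-proteasome system, in which an E3 ligase selects the protein to be tagged. Fbxo32 (atrogin-1) and Trim63 (MuRF1) are the classic atrophy ligases and rise early after denervation, fasting or glucocorticoid treatment. FoxO factors, held out of the nucleus when insulin and Akt signalling is active, switch on both of them and several further F-box genes.

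Total counts per library ran from 66.48 M to 111.9 M (M for mega). Muscle libraries held between 76300 and 148000 CPM (counts relative to library size, scaled by the trimmed mean of M-values, TMM) over 10 skeletal muscle fibre markers and at most 0.878 CPM over 6 spinal neuron markers, with Chat and Mnx1 at 0 in all 17. The transgene read as labelled: human PFN1 averaged 244 ± 45.8 CPM in TG_amiR muscle (n = 6), 236 ± 50.9 CPM in TG_vehicle muscle (n = 5) and 0.00589 ± 0.00653 CPM in wild-type muscle (SD, n = 6, unscaled). Atxn2, the target of the microRNA, averaged 72.5 ± 3.62 CPM in TG_amiR spinal cord, against 110 ± 2.82 CPM in TG_vehicle spinal cord (SD, n = 6 each, unscaled). In muscle Atxn2 averaged 61.7 ± 4.63 CPM in TG_amiR, 66 ± 3.33 CPM in TG_vehicle and 54.9 ± 3.22 CPM in wild-type mice, again unscaled. Library totals moved the median of all genes by −0.136 (log2) between the 2 transgenic arms of muscle. The unscaled Atxn2 values therefore do not decide a direction there. The WPRE element of the vector was at 0.0303 CPM in TG_amiR muscle, against 52.2 CPM in TG_amiR spinal cord (unscaled). One spinal cord library, TG_amiR replicate 2, stood apart with 747 CPM over the fibre markers, against 48.6 to 80.9 CPM in the other 5 of its arm, and with 485 CPM over 6 adipocyte markers, against 0.193 to 0.496 CPM. TG_vehicle replicate 1 of that tissue held 57.2 CPM over the adipocyte markers, against 0.186 to 0.361 CPM in the other 5, and 303 CPM over the fibroblast markers. For 4 libraries of that tissue (2 TG_amiR and 2 TG_vehicle by title) the treatment named in the title contradicts the one in the library name, and grouping followed the titles. By title, WPRE was at 36.5 to 77.6 CPM in the 6 TG_amiR spinal cord libraries and at 0 in the 6 TG_vehicle ones (unscaled). Atxn2 was at 68.2 to 77.5 CPM and 106 to 115 CPM in the same arms (unscaled), with no library on the side of the other arm.

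The first question was what the transgene does to these genes in muscle. Against wild-type muscle, TG_vehicle muscle had more Fbxo30, Foxo1 and Fbxo21 and less Fbxo31 and Traf6 (the sign of Traf6 turned on library totals), while the classic pair, Fbxo32 and Trim63, did not pass the test. That is 5 of 9 genes called at an adjusted p under 0.05 by edgeR's quasi-likelihood test, 3 higher and 2 lower, beside 50.5% of all 16949 genes tested. In 4 of the 9 the arms did not overlap, beside 28.9% of all genes. The 9 genes had a median change of 0.14 on the log2 scale, beside 0.01 for all genes. In bulk muscle, fewer fibres and less RNA per fibre cannot be told apart.

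Fbxo32, the substrate-binding F-box subunit of an SCF ligase, read 252, 229, 226, 362 and 397 CPM in the TG_vehicle libraries, and 183 CPM at the lowest, 299.6 at the median and 372 at the highest in the wild-type libraries. The ranges lay on top of each other, with 3 low and 2 high transgenic libraries. Its fitted change was −0.03 (log2, SE 0.19, edgeR adjusted p = 0.907), with a 95% interval of 0.744 to 1.29-fold. Trim63, a RING ligase of sarcomere proteins, read 140.4, 145, 140.3, 191 and 287 CPM in the TG_vehicle libraries, and 111, 142 and 208 CPM (lowest, median, highest) in wild-type libraries. TG_vehicle replicate 5, a male, was the highest of the 11, and the other 4 lay inside the wild-type range. The change of 0.24 (SE 0.19, edgeR adjusted p = 0.312, interval 0.895 to 1.55-fold) fell to 0.04 without that library, and an edgeR fit on library totals, without TMM, called it at 0.57 (adjusted p = 0.00655). Both intervals include 1 and reach well above it, so these tests do not show that the 2 ligases were at wild-type level.

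The 300 bases around the Trim63 start (RefSeq, GRCm38.p6, chr4:134314870-134315169, plus strand) are shown because they were the one window among the 9 read, which belong to 8 of the genes and not to Fbxo32, that held letters for a FoxO site. Capitals mark, in order, the glucocorticoid receptor hexamer AGAACA and the FoxO site GTAAACA, each read on the other strand and abutting without overlap, and the E-box CAGCTG, a palindrome bound by MyoD-family factors.
Trim63: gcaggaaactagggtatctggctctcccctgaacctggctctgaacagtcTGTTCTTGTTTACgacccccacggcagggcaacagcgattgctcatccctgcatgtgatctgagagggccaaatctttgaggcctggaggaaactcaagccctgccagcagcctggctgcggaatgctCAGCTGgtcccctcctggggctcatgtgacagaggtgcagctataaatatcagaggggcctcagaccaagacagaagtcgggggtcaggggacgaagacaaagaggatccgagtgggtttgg
Counted from the start, the hexamer begins at −200, the FoxO letters at −194 and the E-box at −72. Searched on both strands, the FoxO letters occur in 3.65% of 32851 mouse promoter windows of this length, the hexamer in 19.0% and the E-box in 16.3%. A second window of Nedd4 held the hexamer and an E-box, and the windows of the other 6 genes with an entry held none of the 3.

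Fbxo30, called MUSA1 in muscle and known as a ligase restrained by BMP signalling, read 21.96, 19.5, 21.9, 26.7 and 22.01 CPM in TG_vehicle muscle, and 10.5, 12.7 and 14.9 CPM (lowest, median, highest) in wild-type muscle. Every transgenic library lay above every wild-type one. It was 1.77-fold higher (log2 0.83, SE 0.08, edgeR adjusted p = 6.67e-07), the largest rise of the 9. Fbxo21, called SMART in muscle and likewise an F-box gene of the FoxO programme, read 12.4, 17.1, 13.6, 14.9 and 14.8 CPM in TG_vehicle muscle, and 9.65, 11.1 and 12.3 CPM in wild-type muscle. The arms did not overlap, though the lowest transgenic library came within 0.1 CPM of the highest wild-type one, and the rise was 1.33-fold (log2 0.41, SE 0.09, edgeR adjusted p = 0.00082).

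Fbxo31, an F-box subunit known for degrading cyclin D1 after DNA damage, went the other way. It read 97.1, 106, 82.8, 84.1 and 91.3 CPM in TG_vehicle muscle, and 141, 148 and 188 CPM (lowest, median, highest) in wild-type muscle. All 5 transgenic libraries lay below the lowest wild-type one, with a fold of 0.612 (log2 −0.71, SE 0.08, edgeR adjusted p = 1.43e-06). Wild-type replicate 3, at 188 CPM, stood apart from the other 5, and without it the change was −0.66 (edgeR adjusted p = 2.88e-06). Fbxo31 counts carry a limit: the gene lies inside the protein-coding model Gm20388 on the opposite strand, which read 57.4 to 85.4 CPM in muscle (unscaled). Whether the counting used strand is not stated in the sources used here. The start windows of the gene that rose most and the gene that fell most are shown for comparison with Trim63. Both are in lower case throughout because neither held any of the 3 motifs, and their base composition differs (79.7% G and C for Fbxo30 and 69.7% for Fbxo31, against 57.0% for Trim63). They are chr10:11281337-11281636 on the plus strand and chr8:121578757-121579056 on the minus strand, from RefSeq on GRCm38.p6.
Fbxo30: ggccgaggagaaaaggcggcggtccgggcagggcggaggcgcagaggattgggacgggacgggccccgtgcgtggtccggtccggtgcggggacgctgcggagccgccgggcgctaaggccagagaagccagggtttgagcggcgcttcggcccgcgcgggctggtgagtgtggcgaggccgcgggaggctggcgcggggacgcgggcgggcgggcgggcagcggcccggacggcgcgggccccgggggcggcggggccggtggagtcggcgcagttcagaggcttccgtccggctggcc
Fbxo31: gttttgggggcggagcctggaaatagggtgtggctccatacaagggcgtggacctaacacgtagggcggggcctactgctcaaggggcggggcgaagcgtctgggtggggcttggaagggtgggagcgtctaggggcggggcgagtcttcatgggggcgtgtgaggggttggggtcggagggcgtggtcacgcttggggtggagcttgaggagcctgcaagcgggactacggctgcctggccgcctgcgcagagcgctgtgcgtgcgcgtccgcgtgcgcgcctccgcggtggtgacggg

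Foxo1, the FoxO factor most tied to energy state in muscle, read 44.1, 31.0, 40.8, 34.9 and 30.4 CPM in TG_vehicle muscle, and 22.5, 24.1 and 26.3 CPM (lowest, median, highest) in wild-type muscle. The SD was 6.04 CPM among TG_vehicle libraries and 1.42 CPM among wild-type ones, and the arms did not overlap. The rise was 1.51-fold (log2 0.59, SE 0.12, edgeR adjusted p = 0.000753). Foxo3, which in mouse muscle is the factor shown to drive atrogin-1 transcription and autophagy, read 25.3, 23.0, 19.1, 20.4 and 20.1 CPM in TG_vehicle muscle, and 20.3, 24.4 and 29.0 CPM in wild-type muscle. The arms overlapped and the change of −0.12 (SE 0.05, edgeR adjusted p = 0.0674) missed the threshold, and on library totals alone its sign turned (0.21).

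Of the other 2 ligases, 1 was called. Nedd4, a HECT ligase of membrane and signalling proteins, read 567, 428, 472, 541 and 534 CPM in TG_vehicle muscle, and 436, 455 and 486 CPM (lowest, median, highest) in wild-type muscle. Its change of 0.14 (SE 0.08) did not pass (edgeR adjusted p = 0.139), but did without TG_vehicle replicate 2, at 0.20. Unscaled, Nedd4 averaged 568.7 ± 71.8 CPM in TG_vehicle muscle and 409.4 ± 31.1 CPM in wild-type muscle (SD), so its result depends on the scaling. Traf6, a RING ligase that builds non-degradative ubiquitin chains and feeds NF-kB signalling, read 16.6, 10.9, 14.3, 15.4 and 15.8 CPM in TG_vehicle muscle, and 15.8, 17.4 and 19.1 CPM in wild-type muscle. The fall to 0.831-fold (log2 −0.27, SE 0.09, edgeR adjusted p = 0.0241) was decided by single libraries, TG_vehicle replicate 2 being a 39-week female at 10.9 CPM. Without it edgeR gave a change of −0.17 (adjusted p = 0.0758), without wild-type replicate 3 it was −0.22 (adjusted p = 0.0575), and on library totals alone its sign turned (0.07).

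**Figure D1:**
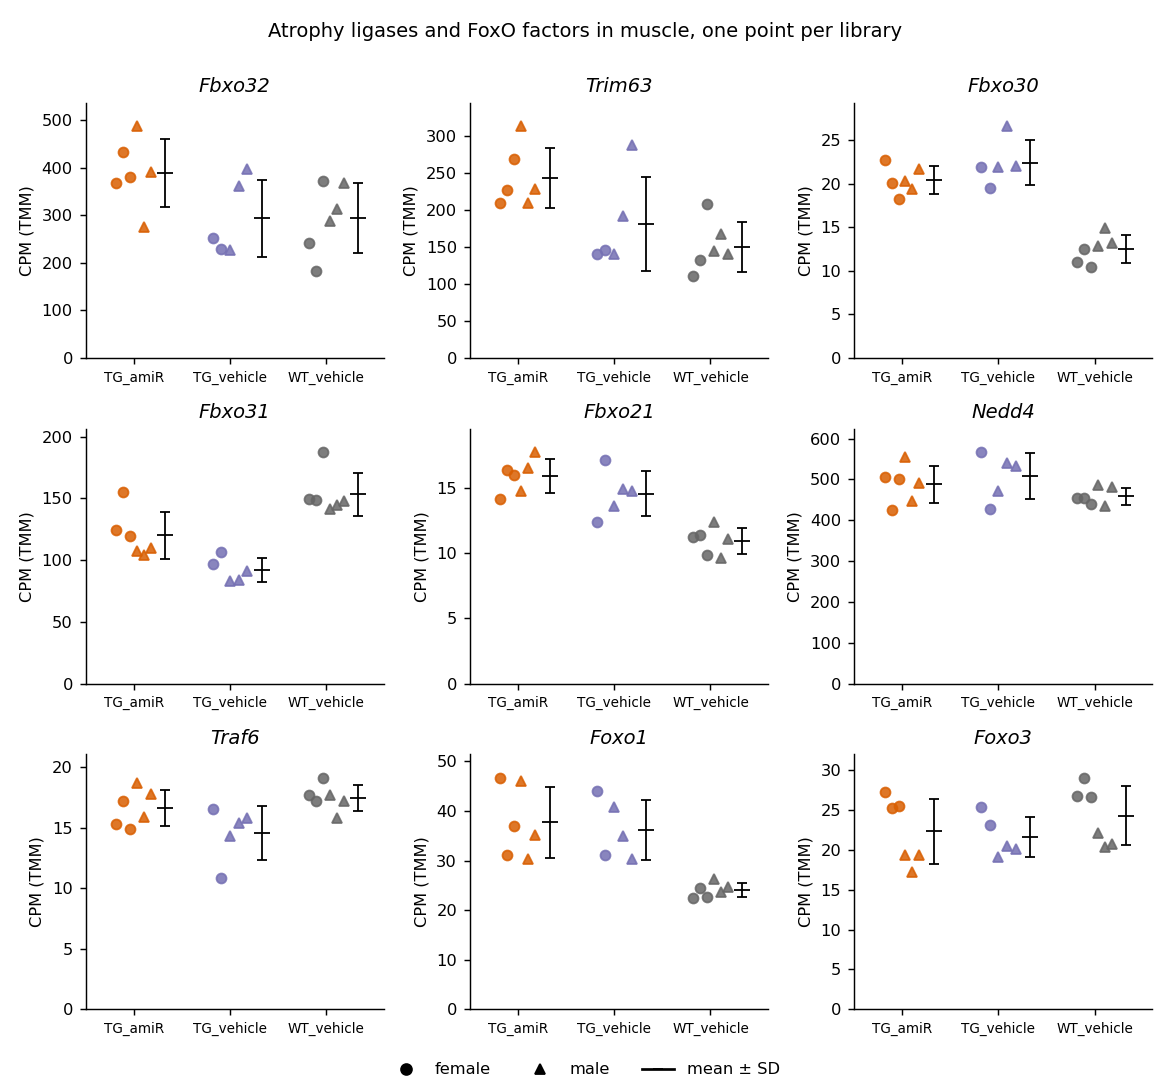
Level of each gene in every muscle library (y axis, TMM-scaled CPM from 0), with circles for females, triangles for males, and bars for mean ± SD. Fbxo30, Fbxo21 and Foxo1 lie higher in all TG_vehicle libraries than in all wild-type ones and Fbxo31 lies lower, whereas Fbxo32, Trim63, Nedd4, Traf6 and Foxo3 overlap.

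Scaling matters in this tissue. TMM factors were 1.04 to 1.18 in TG_vehicle muscle and 0.839 to 0.977 in wild-type muscle, and scaling by library totals alone moved the median of all genes by 0.333 on the log2 scale. Of all genes called in TG_vehicle against wild-type muscle by edgeR, 4351 of 8552 were higher with TMM, while library totals gave 9272 higher and 1301 lower. On totals 6 of the 9 genes were called higher and 1, Fbxo31, lower. For the vector in transgenic muscle, 130 of 190 called genes were higher with TMM and 75 of 596 on library totals, which moved the median of all genes by −0.136. Against wild type, TG_amiR muscle had 2965 of 5959 called genes higher with TMM, and 6187 higher and 1060 lower on totals. The changes given here are on the TMM scale, on which the median gene moved by 0.01 with the transgene. Fbxo30, Fbxo21, Foxo1 and Fbxo31 kept their call and sign under all 25 alternatives run, library totals included.

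Markers of cell make-up moved with the arms in muscle, and their part in the results was not tested. The fibre marker sum was 76300 to 95200 CPM in TG_vehicle muscle, against 120000 to 148000 CPM in wild-type muscle, with 7 of 10 markers lower and 2 higher. Macrophage markers (8 of 8 higher) summed to 95.8 to 122 CPM in TG_vehicle muscle, against 18.8 to 69.8 CPM in wild-type muscle. Fibroblast markers (6 of 6 higher) summed to 930 to 1900 CPM in TG_vehicle muscle, against 246 to 728 CPM in wild-type muscle. Satellite cell markers (3 of 3 higher) summed to 2.38 to 3.41 CPM in TG_vehicle muscle, against 1.07 to 1.83 CPM in wild-type muscle. Markers of adipocytes, red blood cells and endothelium gave 0 of 6, 0 of 4 and 1 of 5 called, Schwann cell markers 1 of 5, cortical neuron markers 1 of the 2 tested and spinal neuron markers 0 of the 1 tested.

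The rest of the pathway was read from 8 gene lists, of which the denervation list moved most. The lists were chosen with earlier results of these data known, so this order is descriptive. Of 18 denervation genes, 17 were higher in TG_vehicle than in wild-type muscle and none lower, with a median of 3.80 (log2), and the counts were the same on library totals. Runx1, a transcription factor induced in denervated fibres, averaged 83.5 ± 17.5 CPM in TG_vehicle muscle and 3.85 ± 0.423 CPM in wild-type muscle (log2 4.40, SE 0.23, edgeR adjusted p = 5.79e-09). Chrnd, the delta subunit of the acetylcholine receptor, averaged 74.0 ± 9.40 CPM in TG_vehicle muscle and 3.73 ± 0.544 CPM in wild-type muscle. In these same 5 TG_vehicle libraries Fbxo32 was above the wild-type range in 1 and Trim63 in 1.

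Among 20 other ligases and ligase regulators linked to wasting, 11 were lower and 3 higher in TG_vehicle muscle (median −0.24), a balance that turned to 3 lower and 9 higher (median 0.10) on library totals. Asb2, the substrate subunit of a cullin-5 ligase of muscle, averaged 223.8 ± 17.4 CPM in TG_vehicle muscle and 549.9 ± 47.5 CPM in wild-type muscle (log2 −1.31, SE 0.09, edgeR adjusted p = 2.35e-08). Wwp1, a HECT ligase, changed by −0.70, Trim54 (MuRF3), a partner of Trim63 on sarcomeres, by −0.50 and Rnf114 by −0.53, the last lost on library totals. Of 20 ubiquitin and SCF core genes, 9 were lower and 3 higher (median −0.13), and on totals 4 lower and 12 higher (median 0.20). The E2 enzymes Ube2d1 and Ube2b changed by −0.97 and −0.51, the RING subunit Rbx1 by −0.46 and the cullin exchange factor Cand1 by 0.54.

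Signals upstream of the ligases moved in both directions on the TMM scale, and mostly upward on library totals. Of 20 FoxO family and insulin-Akt genes, 9 were higher and 4 lower (median 0.20), and on totals 14 higher and 2 lower (median 0.54). Foxo4, a further FoxO factor, averaged 88.8 ± 8.91 CPM in TG_vehicle muscle and 154.6 ± 10.3 CPM in wild-type muscle (log2 −0.82, SE 0.06, edgeR adjusted p = 4.87e-08), opposite in direction to Foxo1. Akt2, the Akt kinase of insulin action, changed by 0.55, and the AMPK catalytic subunits Prkaa1 and Prkaa2 changed by 0.62 and −0.83. Of 20 myostatin and BMP genes, 7 were higher and 4 lower (median 0.05), and on totals 12 higher and 3 lower (median 0.38). Gdf5, the BMP ligand that limits denervation atrophy in mice and acts on Fbxo30 there, averaged 20.9 ± 5.30 CPM in TG_vehicle muscle and 0.411 ± 0.199 CPM in wild-type muscle (log2 5.73, SE 0.34, edgeR adjusted p = 9.54e-09). Mstn (myostatin), the brake on muscle mass, changed by −1.66, its binding protein Fst (follistatin) by 2.79 and the activin receptor Acvr1b by −0.85.

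Of 27 NF-kB and cytokine genes, 14 were higher and 4 lower (median 0.31), and on totals 19 higher and 1 lower (median 0.64). Nfkb2 changed by 1.08, the TNF receptor Tnfrsf1a by 0.94 and the p65 subunit Rela by 0.35, while Tab2, an adaptor that binds the chains made by Traf6, changed by −0.96. Of 12 glucocorticoid genes, 7 were lower and 2 higher (median −0.45), and on library totals 1 lower and 2 higher. The receptor gene Nr3c1 changed by −0.37 and its responsive genes Zbtb16 and Klf9 by −0.69 and −0.49, the calls of Nr3c1 and Klf9 being lost on library totals, and Hsd11b1, which regenerates the active hormone, changed by 0.53. Of 25 FoxO-linked autophagy and stress genes, 10 were higher and 7 lower (median 0.15), and on totals 18 higher and 5 lower (median 0.49). Gadd45a, a stress gene also on the denervation list, changed by 4.22, the cell-cycle inhibitor Cdkn1a by 3.12 and the lysosomal protease Ctsl by 1.01, and Tfeb, the regulator of lysosomal genes, by −0.85.

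**Figure D2:**
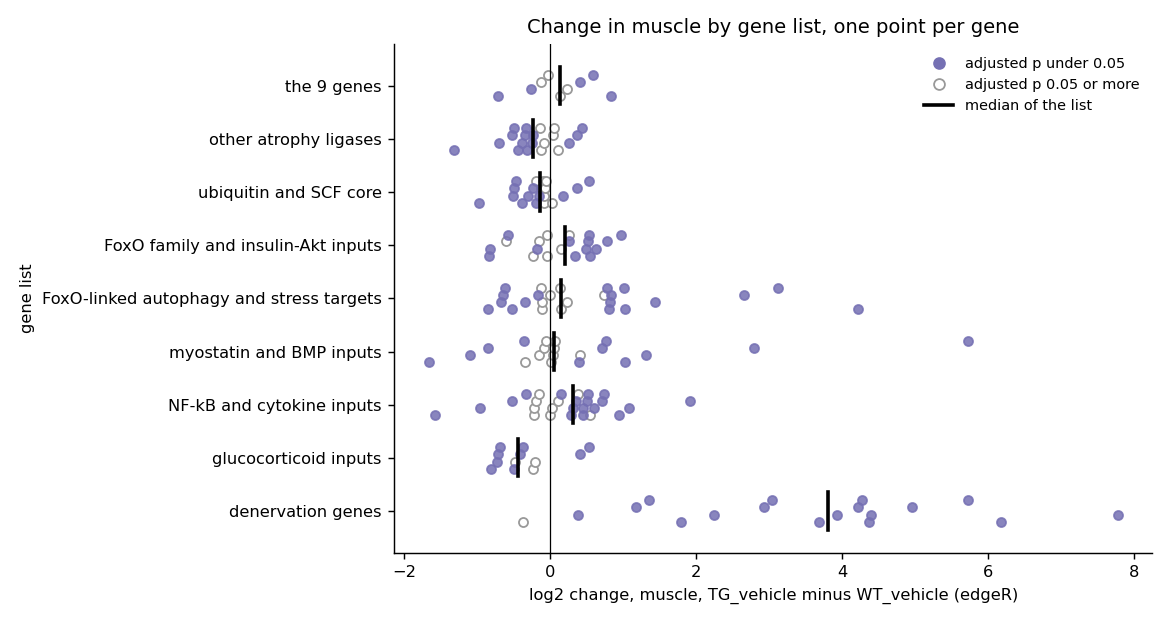
Change in muscle, TG_vehicle minus WT_vehicle (x axis, log2), for each gene of the 9 and of the 8 pathway lists (rows), filled where the edgeR adjusted p is under 0.05, with a bar at the list's median. The denervation list lies far to the right at a median of 3.80, and the other lists spread on both sides of 0.

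The second question was what the vector did to these genes in transgenic muscle. This comparison shares its TG_vehicle libraries with the one above, so the changes of each gene are given side by side only as values. Fbxo31 was the 1 of 9 genes called, beside 1.12% of all genes. It read 104, 114 and 155 CPM (lowest, median, highest) in TG_amiR muscle, between the 82.8 to 106 CPM of TG_vehicle muscle and the 141 to 188 CPM of wild-type muscle, with some overlap on either side. It was 1.28-fold higher in TG_amiR than in TG_vehicle muscle (log2 0.35, SE 0.07, edgeR adjusted p = 0.0366). This call was lost by edgeR without a sex term (adjusted p = 0.139), without mice older than 36 weeks (adjusted p = 0.211) and with the replicate number as a block. The call also ended without any 1 of 9 libraries, TG_vehicle replicates 1 to 4 or TG_amiR replicates 2 to 6. Over all single-library omissions the change was 0.30 to 0.37.

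Fbxo32 and Trim63 had positive changes with the vector that did not pass the test, and for none of the 9 genes were the arms apart, beside 2.33% of all genes. Fbxo32 read 275, 385 and 487 CPM (lowest, median, highest) in TG_amiR muscle, a change of 0.45 from TG_vehicle muscle (SE 0.19, edgeR adjusted p = 0.212), and 5 of 6 libraries lay above the TG_vehicle mean of 293 CPM. Trim63 read 209, 228 and 313 CPM in TG_amiR muscle, a change of 0.46 (SE 0.19, edgeR adjusted p = 0.2), and all 6 lay above the TG_vehicle mean of 181 CPM. Without TG_vehicle replicate 5 the Trim63 change was 0.66 (edgeR adjusted p = 0.0485). Fbxo30 (−0.12), Fbxo21 (0.13), Nedd4 (−0.05), Traf6 (0.20), Foxo1 (0.06) and Foxo3 (−0.01) were not called either, with edgeR adjusted p of 0.261 to 0.969. The 95% interval for Fbxo30 ran from −0.28 to 0.06 and that for Foxo1 from −0.20 to 0.32, and both include changes in either direction.

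Few genes of the pathway lists were called with the vector. Foxo4 (0.30), Asb2 (0.49), Ube2d1 (0.56) and the stress gene Ddit4l (0.66) were higher in TG_amiR than in TG_vehicle muscle, each at an edgeR adjusted p between 0.0237 and 0.0374. None of the 18 denervation genes was called, with a median of −0.32, and none of the NF-kB, myostatin or FoxO-target lists. These calls were not firm: Asb2 kept its call in 17 of 25 alternatives, Ube2d1 in 15 and Foxo4 in 14. Each of these 3 lost it without a sex term, without mice older than 36 weeks and with the replicate number as a block. Foxo4 lost it on library totals too. On that scale the FoxO and insulin-Akt list had 0 higher and 2 lower of 20 (median −0.20), and the FoxO-linked autophagy and stress list 1 lower of 25. Ddit4l is named outside the rule for named genes, and its call was not followed through the alternatives. Marker sums moved here as well, with few markers called. The fibre sum was 93900 to 107000 CPM in TG_amiR muscle, against 76300 to 95200 CPM in TG_vehicle muscle (3 of 10 called higher, Actn3, Pvalb and Ckm). In the same arms macrophage markers summed to 39.9 to 89.5 CPM, against 95.8 to 122 CPM (0 of 8 called). Fibroblast markers summed to 347 to 847 CPM, against 930 to 1900 CPM (1 of 6 called lower). Their part in the Fbxo31 change was not tested.

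Against wild-type muscle, TG_amiR muscle had 5 of 9 genes called, beside 35.2% of all genes. Trim63 was 1.61-fold higher (log2 0.69, SE 0.18, edgeR adjusted p = 0.00613), and its lowest TG_amiR library, at 209 CPM, lay above the highest wild-type one, at 208 CPM. Foxo1 (log2 0.65), Fbxo30 (0.71) and Fbxo21 (0.54) were higher and Fbxo31 (−0.36) lower, the first 3 without overlap (edgeR adjusted p from 4.64e-06 to 0.000909). In all, 4 of the 9 did not overlap, beside 14.4% of all genes. Fbxo32 was at 0.41 (SE 0.18, edgeR adjusted p = 0.081), and was called on library totals (0.62, adjusted p = 0.00542) and without wild-type replicate 3 (0.56, adjusted p = 0.022) or TG_amiR replicate 5 (0.52, adjusted p = 0.025). For Trim63 the 95% interval was 0.32 to 1.06 against wild type in TG_amiR muscle, and −0.16 to 0.63 in TG_vehicle muscle.

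In spinal cord, where 8 of the 9 genes were tested and Trim63 was too low, 3 were called in TG_vehicle against wild-type mice, beside 36.8% of 20307 genes. Fbxo31 was lower here too, at 72.3, 77.8 and 81.5 CPM (lowest, median, highest) in TG_vehicle spinal cord, against 102, 113 and 128 CPM in wild-type spinal cord. The arms did not overlap (log2 −0.54, SE 0.08, edgeR adjusted p = 2.99e-05). Gm20388, on its other strand, read 29.5 to 42.1 CPM (unscaled). Fbxo21 was lower as well, at 88.5, 94.8 and 99.8 CPM in TG_vehicle spinal cord, against 113, 121 and 128 CPM in wild-type spinal cord (log2 −0.34, SE 0.06, edgeR adjusted p = 0.00032), where in muscle it was higher. Foxo1 was higher, at 30.2, 34.7 and 36.0 CPM in TG_vehicle spinal cord, against 25.1, 27.6 and 28.9 CPM in wild-type spinal cord (log2 0.30, SE 0.06, edgeR adjusted p = 0.000758). All 3 had no overlap between arms, beside 22.9% of all genes, and each kept its call under all 27 alternatives, without TG_vehicle replicate 1 at −0.54 for Fbxo31, −0.35 for Fbxo21 and 0.29 for Foxo1. Over all genes, 3822 of 7466 calls were higher with TMM, and 5361 were higher and 1993 lower on library totals. Fbxo32, Fbxo30, Nedd4, Traf6 and Foxo3 had fitted differences of −0.11 to 0.07 and were not called.

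Of the pathway lists in this comparison, the NF-kB and cytokine list moved most, with 20 of 26 genes called higher and 2 lower (median 0.46). The FoxO and insulin-Akt list had 1 higher and 7 lower of 20, the other atrophy ligases 1 higher and 8 lower of 18, and the ubiquitin and SCF core 1 higher and 8 lower of 20. Fewer were called among glucocorticoid genes (1 higher and 3 lower of 12), myostatin and BMP genes (4 higher and 1 lower of 20) and denervation genes (3 higher and 1 lower of 12), and FoxO-linked autophagy and stress genes split 8 higher to 7 lower of 25. Microglial markers (8 of 8 higher) summed to 325 to 1220 CPM in TG_amiR, 1280 to 1580 CPM in TG_vehicle and 134 to 198 CPM in wild-type spinal cord. Spinal neuron markers (6 of 6 lower) summed to 495 to 824, 349 to 496 and 667 to 746 CPM in the same arms, and the part of either in these changes was not tested.

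With the vector, none of the 8 genes was called in spinal cord, beside 5.11% of all genes by edgeR (1037, and 242 to 2539 with 1 library left out). Only 1 (Fbxo21, 0.14) had an unadjusted p under 0.05, beside 4745 of the 20307 genes. DESeq2 called 0 as well, and the arms overlapped for all 8 (2.23% of all genes did not overlap). Against wild-type spinal cord, TG_amiR spinal cord had the same 3 called, beside 25.5% of all genes: Fbxo31 at −0.43, Foxo1 at 0.24 and Fbxo21 at −0.20 (edgeR adjusted p = 0.000461, 0.00692 and 0.0254). Without TG_amiR replicate 2, the library with muscle and fat markers, these were −0.47, 0.24 and −0.24, all called. The arms overlapped for all 8, beside 12.6% of all genes that did not. The Fbxo21 call was lost without wild-type replicate 4 or TG_amiR replicate 6. Without the 4 libraries with conflicting names, the same 3 were called in TG_vehicle against wild-type mice and Nedd4 was called too (−0.15, edgeR adjusted p = 0.0356).

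In cortex none of the 9 genes was called by edgeR in any comparison. TG_vehicle against wild-type cortex gave 0 of 9 with an unadjusted p under 0.05 and 0 by DESeq2, beside 0.0247% of 20278 genes called. TG_amiR against TG_vehicle cortex likewise gave 0 of 9 and 0 by DESeq2, beside 0.0197%. TG_amiR against wild-type cortex gave 3 with an unadjusted p under 0.05 (Fbxo30 at −0.30, Traf6 at −0.33 and Fbxo21 at 0.12), beside 3710 of the 20278 genes. DESeq2 called 0 of the 9, and edgeR called 1.12% of all genes (228, and 11 to 493 with 1 library left out). In that last comparison Fbxo21 alone did not overlap, at 99.2, 104 and 106 CPM (lowest, median, highest) in TG_amiR cortex, against 91.9, 94.4 and 98.2 CPM in wild-type cortex, beside 4.73% of all genes. The other 2 comparisons had no gene of the 9 without overlap, beside 0.577% (TG_vehicle against wild type) and 0.562% (TG_amiR against TG_vehicle). No gene of the pathway lists was called in cortex other than 1 of 20 in the ubiquitin and SCF core, higher in TG_amiR than in wild-type cortex. Cortical neuron markers summed to 1570 to 1640 CPM in TG_amiR, 994 to 1520 CPM in TG_vehicle and 1230 to 1490 CPM in wild-type cortex. Spinal neuron markers summed to 3.88 to 83.7, 3.65 to 25.9 and 4.54 to 11.7 CPM in the same arms. No marker of either list was called in cortex, and their part in the cortex values was not tested. Fbxo32 varied widely among cortex libraries, at 20.0 to 50.2 CPM in TG_amiR, 16.4 to 45.6 CPM in TG_vehicle and 24.1 to 40.5 CPM in wild-type cortex.

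**Figure D3:**
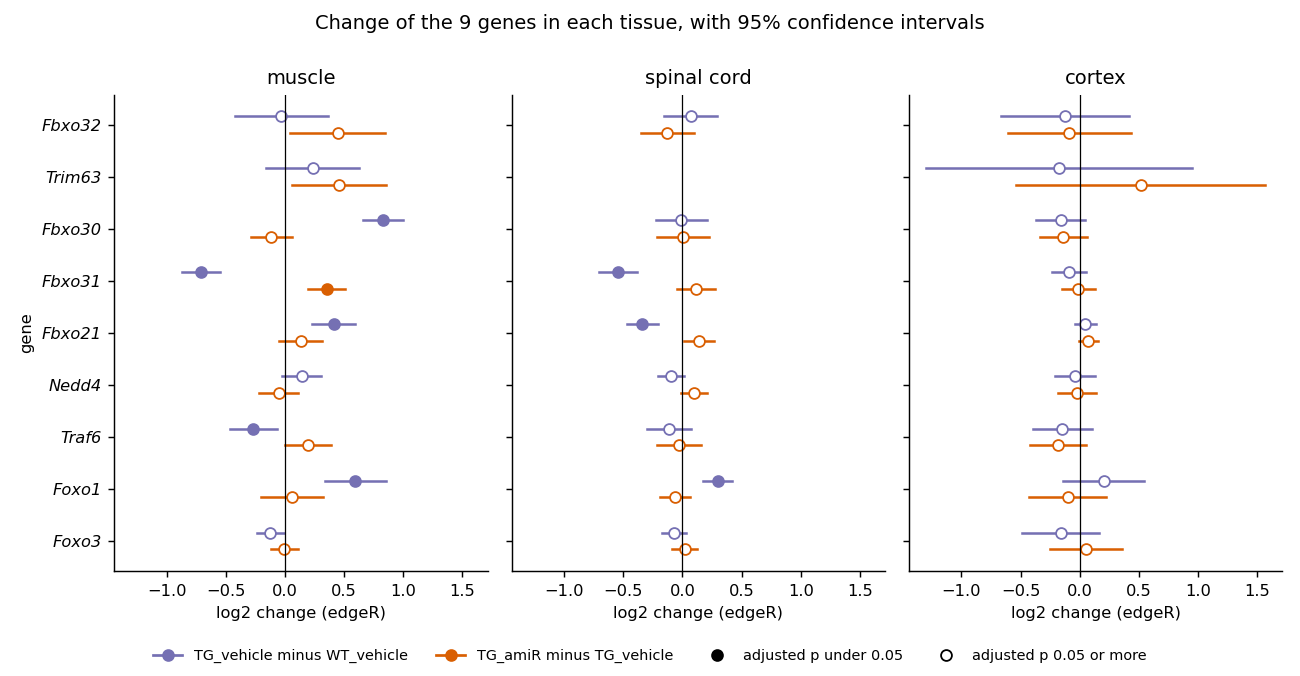
Log2 change (x axis) of each gene in muscle, spinal cord and cortex for TG_vehicle minus WT_vehicle and TG_amiR minus TG_vehicle, with 95% confidence intervals from edgeR and filled points where the adjusted p is under 0.05. Fbxo30 departs from 0 in muscle (0.83), Fbxo31 falls in muscle (−0.71) and spinal cord (−0.54), and Fbxo21 lies on opposite sides of 0 in these tissues (0.41 and −0.34).

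Whether the transgene change differed between tissues was tested in a joint model of 22316 genes. The model treated all libraries as separate samples, so any sharing of mice between tissues, which the labels do not give, was not modelled. Against spinal cord, the muscle change was higher for Fbxo30 by 0.87 (SE 0.14, edgeR adjusted p = 2.28e-06), for Fbxo21 by 0.79 (SE 0.10, adjusted p = 1.19e-08) and for Nedd4 by 0.27 (SE 0.10, adjusted p = 0.0387). That is 3 of the 8 genes tested in spinal cord, beside 31.0% of all genes of the joint model. Trim63, too low in spinal cord, entered this model through its muscle counts and is left out of the count. Against cortex, it was higher for Fbxo30 by 1.00 (SE 0.14, edgeR adjusted p = 3.75e-07) and Fbxo21 by 0.38 (SE 0.10, adjusted p = 0.00276) and lower for Fbxo31 by −0.61 (SE 0.11, adjusted p = 3.34e-05), 3 of 9 beside 27.7%. Library totals moved the median of all genes by 0.186 against spinal cord and 0.265 against cortex. The Fbxo30, Fbxo21 and Fbxo31 differences kept their call under all 60 alternatives. The Nedd4 difference was lost under 12, among them DESeq2 size factors and the omission of any 1 of 10 libraries: in muscle, wild-type replicates 3 and 5 and TG_vehicle replicates 1, 4 and 5, and in spinal cord, wild-type replicates 1 to 3 and TG_vehicle replicates 1 and 2. For Foxo1 the difference of muscle from spinal cord was 0.33 (SE 0.17, edgeR adjusted p = 0.161), and for Fbxo31 it was −0.13 (SE 0.11, adjusted p = 0.382).

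The vector's change differed between muscle and cortex for Fbxo31 by 0.38 (SE 0.11, edgeR adjusted p = 0.0417), 1 of 9 beside 2.54% of all genes, a call that 42 of 60 alternatives kept and 13 of 52 single-library omissions ended. Between muscle and spinal cord none of the 8 genes tested in spinal cord was called by edgeR, beside 3.04%. Of these, 2 (Fbxo31 and Fbxo32) had an unadjusted p under 0.05, beside 3604 of the 22316 genes of the joint model, and DESeq2 called 0.

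Levels per kilobase of exon, on a TMM scale shared by all 52 libraries, placed the genes in 3 tiers in muscle. Trim63 led with 145.8 CPM per kb in TG_amiR, 108 in TG_vehicle and 89.6 in wild-type muscle, followed by Fbxo32 (95.1, 71.1 and 71.2 in the same arms) and Nedd4 (75.8, 78.3 and 70.8). In wild-type muscle the SDs of Trim63 and Fbxo32, 20.4 and 17.3, cover the gaps among these 3. Fbxo31 stood alone in the middle, at 37.4, 28.5 and 47.3 CPM per kb. Foxo1 (7.43, 7.06 and 4.70), Fbxo30 (6.70, 7.29 and 4.08), Foxo3 (5.02, 4.82 and 5.43), Fbxo21 (4.90, 4.44 and 3.33) and Traf6 (3.603, 3.13 and 3.75) made up the low tier, whose order changed between arms.

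Wild-type muscle differed from wild-type spinal cord in all 8 genes that passed the filter on low counts in both tissues, and from wild-type cortex in 8 of 9. Beside these stand 83.5% and 84.1% of all genes of the joint model, a set not limited to genes that passed in both tissues. Trim63 failed that filter in spinal cord and entered the joint model through its muscle counts, so its difference from spinal cord is given as levels without a test. Trim63 was at 89.6 ± 20.4 CPM per kb in muscle and 0.0166 ± 0.0178 CPM per kb in spinal cord (SD, n = 6 each), and its spinal cord libraries held 1 to 15 counts each. The fitted log2 difference from cortex was 9.98. On the TMM scale Fbxo32 was 8.94-fold above spinal cord and 15.6-fold above cortex, and Fbxo31 3.40-fold and 3.22-fold. Fbxo21 was lower in muscle, at 3.33 CPM per kb, than in spinal cord, at 16.6 (0.202-fold), and in cortex, at 13.7 (0.246-fold), and Foxo3 was lower too, at 0.738-fold and 0.565-fold. Nedd4 and Traf6 were higher in muscle than in either tissue on the TMM scale, and Fbxo30 and Foxo1 higher than in spinal cord. Each of these signs held under 59 of 60 alternatives, DESeq2 size factors among them, and turned on library totals alone. Library totals moved the median of all genes by −1.22 (spinal cord) and −1.16 (cortex). The changes there were −0.50 and −0.39 for Nedd4, −0.70 and −0.65 for Traf6, −0.23 for Fbxo30 and −0.29 for Foxo1. Foxo1 was not called against cortex (0.30, edgeR adjusted p = 0.0556) and turned to −0.88 on library totals.

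**Figure D4:**
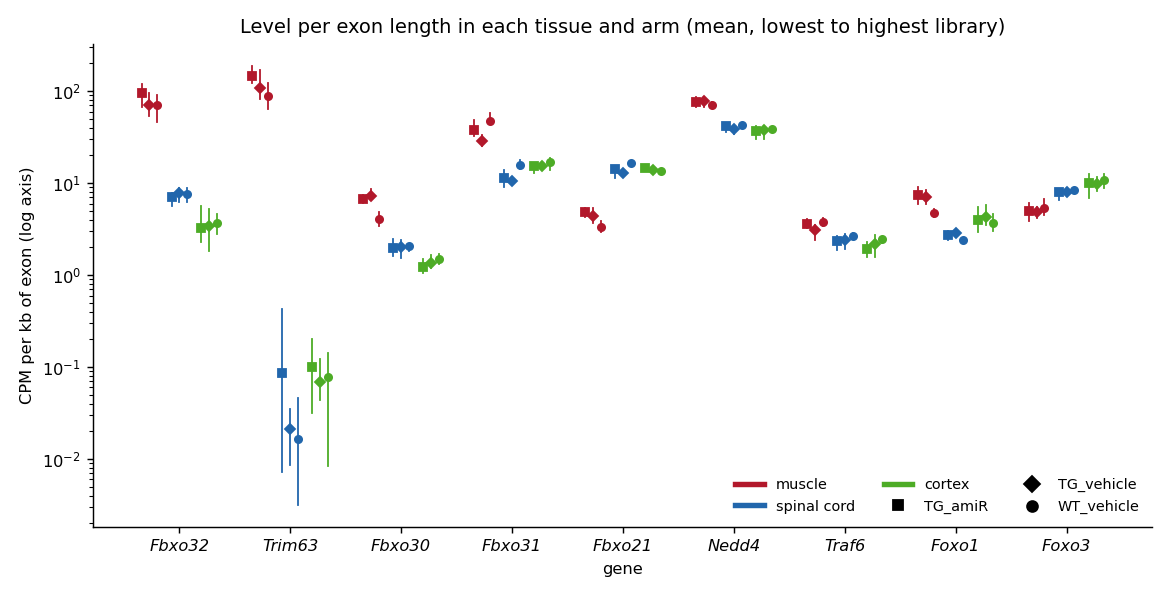
Mean level per kilobase of exon (y axis, log scale, CPM per kb on a scale shared by all libraries) of each gene by tissue (colour) and arm (shape), with lines from the lowest to the highest library. Trim63 drops from about the top of the plot in muscle to under 1 CPM per kb in spinal cord and cortex, and Fbxo21 and Foxo3 are the genes that lie lower in muscle than in both other tissues.

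Sex split one gene in muscle. Foxo3 read 17.3, 20.1 and 22.1 CPM (lowest, median, highest) in 9 male muscle libraries, and 23.0, 26.02 and 29.0 CPM in 8 female ones, and the sexes did not overlap. This comparison was added after the levels by library had been seen, so its test is descriptive. Males were at 0.764-fold of females (log2 −0.39, SE 0.04, edgeR adjusted p = 3.12e-05), and this call held under all 23 alternatives, without mice older than 36 weeks at −0.42. Fbxo31 was lower in male muscle as well, at 82.8, 108 and 148 CPM in males and 97.1, 136 and 188 CPM in females (log2 −0.24, SE 0.06, edgeR adjusted p = 0.0218), with wide overlap, and this call was lost without the older mice (−0.19, adjusted p = 0.0727) or without TG_vehicle replicate 2 (−0.23, adjusted p = 0.0502). That is 2 of 9 genes beside 7.45% of all genes in muscle.

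Foxo3 showed no such split elsewhere: it read 80.9, 82.3 and 87.8 CPM in male spinal cord and 68.8, 81.6 and 87.0 CPM in female spinal cord, and 68.2, 101.6 and 120.3 CPM in male cortex and 71.5, 99.1 and 120.8 CPM in female cortex. None of the 9 was called by sex in spinal cord (8 tested, 0.0936% of all genes) or cortex (0.133%) by edgeR, with 0 at an unadjusted p under 0.05, and no other tool was run on these comparisons. The sex difference of Foxo3 was lower in muscle than in spinal cord by −0.45 (SE 0.12, edgeR adjusted p = 0.0176) and than in cortex by −0.40 (SE 0.12, adjusted p = 0.0499), and that of Fbxo31 by −0.37 (adjusted p = 0.00743) and −0.36 (adjusted p = 0.0136). These are 2 of the 8 genes tested in spinal cord and 2 of 9 for cortex, beside 3.64% and 3.36% of all genes. The Foxo3 difference from cortex held in only 7 of 23 alternatives, and without the older mice the differences from spinal cord were not called, at −0.42 for Foxo3 and −0.37 for Fbxo31 (edgeR adjusted p = 0.0796 and 0.0568). Whether the transgene change in muscle differed by sex was tested on its own, and 0 of 9 were called (0.112% of all genes), 0 at an unadjusted p under 0.05 and 0 by DESeq2.

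**Figure D5:**
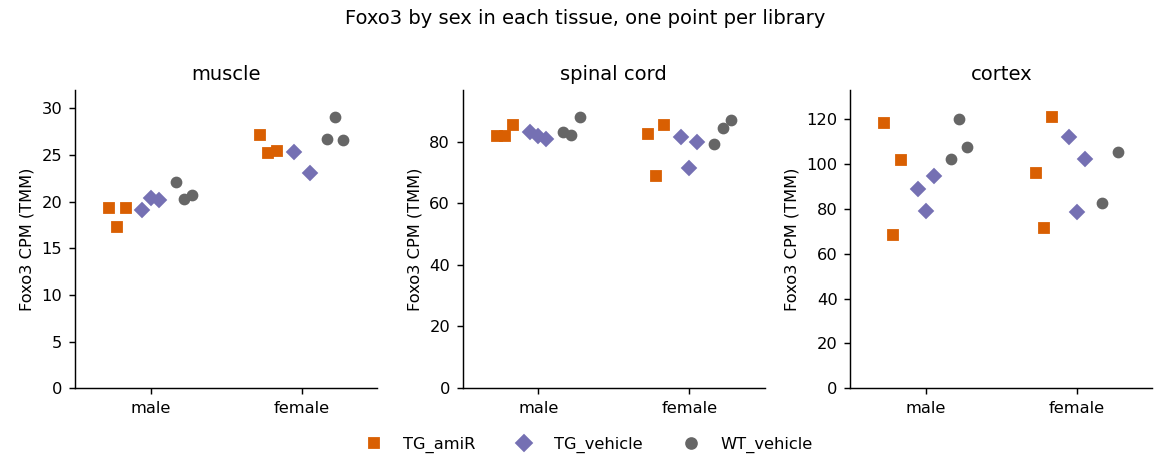
Foxo3 in every library by sex (x axis) and tissue (y axis, TMM-scaled CPM from 0), with shape and colour for the arm. In muscle all 9 male libraries (at most 22.1 CPM) lie below all 8 female ones (at least 23.0 CPM), while in spinal cord and cortex the sexes overlap.

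For the 5 genes called in TG_vehicle against wild-type muscle, the genes with the most similar pattern over the 17 muscle libraries were found by the mean absolute difference between centred log2 profiles, among 11509 genes at 1 CPM or more. Fbxo30 lay nearest to Slc4a7 (0.11), Sgk3 (0.12), a kinase related to Akt, and Lnpep (0.12). Fbxo31 lay nearest to Abcc4 (0.10), Tex2 (0.10) and Ube2b (0.10), the E2 enzyme named above. Fbxo21 lay nearest to Armc10 (0.11), Eci2 (0.11) and Ptpre (0.11), Foxo1 to Fgf13 (0.11) and Fubp1 (0.12), and Traf6 to Stx17 (0.06), Xpo7 (0.07) and Impad1 (0.07). The mean absolute deviation of the genes themselves was 0.35 for Fbxo30, 0.29 for Fbxo31, 0.24 for Fbxo21, 0.30 for Foxo1 and 0.13 for Traf6, and Traf6 varied least of these 5. Outside this rule, and chosen after the values were seen, Trim63 was at 0.20 from Fbxo32, the second nearest of the 11509 genes to Fbxo32, and Fbxo32 was the nearest to Trim63.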

How the data were processed

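The deposited table held RSEM expected counts per gene, made by the authors with bcl2fastq 2.20, STAR 2.7.2d and RSEM 1.3.2 on GRCm38 and GRCh38, per the submitters' processing notes, which also name DESeq2 1.34.0. The labels state poly(A) RNA, an automated column extraction and paired-end sequencing. Of the 55510 rows, 55401 were mouse genes, and 55141 of these matched a symbol. All 52 count columns were mapped by title.

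Expected counts as deposited were rounded and tested here with edgeR 4.0.16 (R 4.3.3, limma 3.58.1): TMM scaling, filterByExpr, the quasi-likelihood test, arm and sex per tissue, and for differences between tissues 1 joint model of all libraries with sex within tissue. P-values were adjusted by Benjamini-Hochberg over all genes tested (16949 in muscle, 20307 in spinal cord, 20278 in cortex, 22316 jointly), and called means an adjusted p under 0.05. SEs are the log2 change over the root of F, and intervals are 95%. The fits were tested on simulated data in which few genes changed, in either direction. That setting is unlike the muscle comparison, with 50.5% of genes called, and does not test the scaling used there. Levels per kilobase used exon lengths of a GRCm38 annotation, and no source used here names the authors' annotation release. Intervals cover the spread between libraries.

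All 9 genes are named whatever their values. From each pathway list, up to 4 called genes with the smallest adjusted p in TG_vehicle against WT_vehicle muscle are named, and for each called gene of the 9 the 3 genes most like it over muscle libraries. For genes that 2 lists share, either list can name them. Some genes that this rule names are not reported here. The members and lists were chosen with earlier results of these data known. The sex comparison was added after levels were seen.

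Alternatives were DESeq2 size factors, library totals only, DESeq2 1.42.0 with its Wald test, no filter, no sex term, RNA integrity as a covariate, no mice older than 36 weeks, no libraries with conflicting names, a replicate block, and each library left out in turn. Promoter windows (250 bases before to 50 after the start) came from RefSeq, with motifs searched on both strands. No pair of arms had same-numbered libraries that all deviated together. That check used the numbers of the titles and did not remove sex. In some groups, TG_vehicle muscle among them, these numbers differ from those in the library names. The check therefore cannot decide whether libraries are paired, and numbers were not used as pairs.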

Additional observations from a re-analysis of the deposited data

Results flagged for a closer look

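A single library stood apart from the others of its arm, by the ratio of its gap to the arm's range, in 5 of 81 gene-by-arm groups tested, where chance gives about 1 in 20. In muscle this was Fbxo31 in wild-type replicate 3 (ratio 0.827, 188 CPM against 141 to 149 CPM in the other 5). In spinal cord TG_amiR replicate 2, the library with muscle and fat markers, stood apart for Trim63 (0.951, at 1.69 CPM against at most 0.109 CPM), Nedd4 (0.778, at 542 CPM) and Foxo3 (0.79, at 68.8 CPM). Foxo3 in spinal cord TG_vehicle replicate 2 had a ratio of 0.707 (71.6 CPM). The part of muscle tissue in these values was not tested.

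The transgene change differed between tissues in edgeR's joint model for Fbxo30 (0.869 higher in muscle than in spinal cord and 1.00 higher than in cortex), Fbxo21 (0.785 and 0.379 higher), Nedd4 (0.272 higher than in spinal cord) and Fbxo31 (−0.605 against cortex). The vector's change differed for Fbxo31 between muscle and cortex (0.382). The difference between males and females in muscle differed from that in spinal cord for Foxo3 (−0.451) and Fbxo31 (−0.372), and from that in cortex for Foxo3 (−0.397) and Fbxo31 (−0.356).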

How the results depend on the processing

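Of the 9 genes, counts called by edgeR moved as follows. Without a sex term, without mice older than 36 weeks and with the replicate number as a block, TG_amiR against TG_vehicle muscle gave 0 (1 as reported). The vector's difference between muscle and cortex gave 0 under DESeq2 size factors, library totals, no filter, no sex term and no older mice (1 as reported), and the transgene's gave 5 on library totals (3). Without the older mice, male against female gave 1 in muscle, 0 for muscle minus spinal cord and 1 for muscle minus cortex, and no filter gave 1 for the last (2 each as reported). With the block, TG_vehicle and TG_amiR against wild-type muscle gave 5 each, as many as without it. In the first of these the block ended the Traf6 call (edgeR adjusted p = 0.0502), so the 5 genes called there are not the same. The numbers of the block are those of the titles, and in muscle same-numbered deviations correlated between −0.212 and 0.421, which does not decide whether libraries are paired.

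Leaving out 1 library at a time gave 0 to 2 for TG_amiR against TG_vehicle muscle, 0 to 1 in spinal cord, 0 to 1 for the vector's muscle minus cortex difference, 1 to 2 for sex in muscle and 1 to 2 for its muscle minus cortex difference. It gave 4 to 6 for TG_vehicle against wild-type muscle, 5 to 6 for TG_amiR against wild-type muscle and 3 to 3 for TG_vehicle against wild-type spinal cord. Over all genes, TG_amiR against TG_vehicle muscle called 190, but 972 with DESeq2, 474 with RNA integrity, 295 with no filter, 3 without a sex term, 3 with the block, 1 without the older mice, and 0 (without TG_vehicle replicate 1) to 965 (without wild-type replicate 3).

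On library totals alone, signs turned for Foxo3 (0.21), Traf6 (0.0688), Impad1 (0.131) and Xpo7 (0.12) in TG_vehicle against wild-type muscle, and for wild-type muscle minus cortex and minus spinal cord in Nedd4 (−0.394 and −0.496), Traf6 (−0.649 and −0.704) and Foxo1 (−0.875 and −0.292), and minus spinal cord in Fbxo30 (−0.227). The cause of the other moves was not tested. Older mice were all transgenic females in muscle, so age, sex and arm are partly tied there, and Trim63, at 1 to 132 counts in spinal cord, was not tested there.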
